A study of Mus musculus with 27 samples.

Results

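MHC class I molecules show peptides from inside the cell to cytotoxic T cells. A set of genes of this pathway were followed through the reprogramming of mouse fibroblasts, and they were taken by gene symbol from the deposited expression tables: B2m, H2-K1, H2-D1, Tap1, Tap2, Tapbp, Psmb8 and Psmb9, which are 8 of 20156 genes. Their transcript levels were read in 6 RNA-seq libraries, and 4 chromatin measures (histone H3, H3K4me3, H3K27me3 and H3K9me3) were read at their promoters in 21 libraries made from mononucleosomes that micrococcal nuclease had released.

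In this pathway the proteasome cuts cytosolic proteins into peptides, and the subunits encoded by Psmb8 and Psmb9 replace constitutive ones to form the immunoproteasome. The TAP transporter, a dimer of the Tap1 and Tap2 products, carries peptides into the endoplasmic reticulum, where tapasin, the product of Tapbp, holds empty class I molecules next to it. A class I molecule consists of a polymorphic heavy chain, such as those encoded by H2-K1 and H2-D1, and the invariant light chain β2-microglobulin, encoded by B2m. Interferons induce these genes together, and pluripotent stem cells are known to carry little class I on their surface. H3K4me3 is a mark of active promoters, H3K27me3 is laid down by Polycomb complexes at silent or poised genes, and H3K9me3 marks heterochromatin.

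The study compared MEFs, pre-iPSCs and iPSCs. MEFs were fibroblasts from embryos of day 13.5 that carried an Oct4-GFP transgene, a reporter of pluripotency, together with a Rosa26 allele; the study's methods give the cross as Oct-GFP males of CBA/CaJ × C57BL/6J origin with 129Sv/Jae females. Pre-iPSCs are partially reprogrammed clones and iPSCs are fully reprogrammed cells, and both came from such MEFs after retroviral delivery of the 4 Yamanaka factors, so every group shared the transgenic background. The pre-iPSCs were stable clones and the iPSCs were the lines that corresponded to them, and which clone gave which library was not given. MEFs were grown in fibroblast medium for no more than 3 passages. The reprogrammed lines were grown for 6 passages on mitomycin C-inactivated MEF feeders with LIF, so their RNA can include feeder RNA. RNA, H3, H3K4me3 and H3K27me3 were measured in 2 libraries per cell type, and H3K9me3 in 1. The study describes the RNA, H3, H3K4me3 and H3K27me3 libraries as biological replicates, but which embryos, clones or cultures gave them was not stated, so the p-values measure the spread between these libraries. In such bulk samples, fewer cells of a type and less RNA per cell cannot be told apart.

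B2m lies on chromosome 2, with its transcription start site (TSS) at position 121973423 of the mm9 build on the plus strand. The other 7 genes lie in the MHC on chromosome 17. Tapbp starts at 34056423 (plus strand), H2-K1 at 34137278 (minus strand), Psmb9 at 34324275 (minus strand), Tap1 at 34324501 (plus strand), Psmb8 at 34335140 (plus strand), Tap2 at 34341424 (plus strand) and H2-D1 at 35400039 (plus strand). Psmb9 and Tap1 start 226 bp apart in opposite directions, so their promoter windows overlap and share reads. Tap1, Psmb9, Psmb8 and Tap2 together span 17149 bp between their outermost start sites.

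The promoter sequences of B2m and H2-K1 are shown because these genes had the clearest differences in transcript level and the shared regulatory element of class I genes, respectively. Both are given 5′ to 3′ on the strand of the gene, from the mm9 (NCBIM37) genome, with matches to searched motifs in capitals. The B2m stretch is chr2:121973223-121973421 on the plus strand and the H2-K1 stretch is chr17:34137279-34137478 on the minus strand.
B2m: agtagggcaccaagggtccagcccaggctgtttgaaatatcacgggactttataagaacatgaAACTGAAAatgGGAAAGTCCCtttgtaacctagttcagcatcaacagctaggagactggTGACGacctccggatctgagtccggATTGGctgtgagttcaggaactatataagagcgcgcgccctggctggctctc
H2-K1: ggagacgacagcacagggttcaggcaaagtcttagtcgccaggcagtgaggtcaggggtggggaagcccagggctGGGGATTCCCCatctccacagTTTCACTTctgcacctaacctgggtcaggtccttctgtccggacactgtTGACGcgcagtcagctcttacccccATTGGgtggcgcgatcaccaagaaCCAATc

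The motifs were searched on both strands in the 200 bases upstream of each start site. The interferon regulatory factor core was AANNGAAA, the core of the cyclic AMP response element was TGACG, the CCAAT box was CCAAT, and the NF-kB consensus was searched by its usual degenerate form. B2m, H2-K1 and H2-D1 each had an NF-kB match next to an interferon regulatory factor core. The core stood 134 bp upstream of the start site of B2m, 101 bp upstream for H2-K1 and 147 bp upstream for H2-D1. The 30-base stretch that holds both matches is shown for the 3 genes, to allow a comparison of their order and spacing. It was at chr2:121973286-121973315 (plus strand) for B2m, chr17:34137374-34137403 (minus strand) for H2-K1 and chr17:35399868-35399897 (plus strand) for H2-D1, where the annotation places it in an exon of a longer H2-D1 transcript.
B2m element: AACTGAAAatgGGAAAGTCCCtttgtaacc
H2-K1 element: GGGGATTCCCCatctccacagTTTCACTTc
H2-D1 element: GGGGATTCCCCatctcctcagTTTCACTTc

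The H2-K1 and H2-D1 elements were identical at 29 of 30 bases, and the same 2 motifs stood in the opposite order in B2m. Of the other genes, Tap2 held interferon regulatory factor cores 187 and 132 bp upstream, and the stretch between Psmb9 and Tap1 held no such core. In all, the core was found in 4 of the 8 genes and in 15.5% of 20153 promoters of the same length, and the NF-kB consensus in 3 of the 8 and in 6.7%. TGACG was found in 5 of the 8 and in 19% of promoters, and CCAAT in 5 and in 31.2%. The TGACG matches of Tap1 and Psmb9 are 1 site in the stretch between them, counted for both genes. The 200 bases upstream of H2-K1 and H2-D1 were 90.2% identical (138 of 153 aligned bases), so the matches of these genes are not independent. These are matches of letters and no measurement of binding.

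The 2 RNA-seq tables each held 1 library of every cell type, and their values were FPKM, fragments scaled to transcript length and sequencing depth. Replicates correlated across genes at r = 0.956 for MEFs, 0.969 for pre-iPSCs and 0.979 for iPSCs on the log2(FPKM + 1) scale, and these are not independent points. The MEF libraries stood apart from each other: FPKM summed to 492500 in MEF 1 and 818200 in MEF 2, and the difference followed transcript length, with a median log2 ratio of MEF 2 to MEF 1 of 1.43 in the class of the shortest transcripts (up to 1000 bases) and -1.07 in that of the longest. The same median ratio of replicate 2 to replicate 1 went from 0.371 to -0.539 for pre-iPSCs and from -0.425 to 0.296 for iPSCs. Levels of genes of unequal length, and of 1 gene between cell types, are therefore compared with this limit. Marker genes were set against the labels, with calls by the limma thresholds given below. Of 15 fibroblast genes, 11 were called lower in pre-iPSCs than in MEFs and 12 lower in iPSCs than in MEFs. Of 10 pluripotency genes, 5 were called higher in pre-iPSCs than in MEFs and 8 higher in iPSCs than in pre-iPSCs. All 10 were called higher in iPSCs than in MEFs. Over all genes tested, 16.4%, 8.62% and 25.9% were called in these comparisons. Zfp42, Esrrb and Nanog passed the filter (a mean of 0.5 FPKM) through the iPSC libraries. With no filter their calls between iPSCs and pre-iPSCs stayed (limma adjusted p = 0.0136 each). The fibroblast list summed to 6511 and 11700 FPKM for the MEF libraries, 717 and 779 for pre-iPSCs and 335 and 479 for iPSCs, with no member at 0. Among the H3 libraries, pre-iPSC 1 and iPSC 1 stood apart, with 3% and 2.215% of the reads of nucleosome calls within 1000 bp of a start site against 1.171% to 1.308% in the other 4. Reads in calls ranged from 67362868 to 108211816 in the H3 libraries and from 12007350 to 15222040 in the libraries of the modifications.

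B2m had the highest transcript level of the 8 genes in every library, and it fell in both reprogrammed cell types. Its FPKM was 654 and 1727 for MEFs, 251 and 118 for pre-iPSCs and 126 and 117 for iPSCs. Both MEF libraries lay above all 4 libraries of reprogrammed cells, and B2m stood between the 97.2 and 99.6 percentiles of all genes in each library. The mean was 1190 ± 759 FPKM for MEFs, 184 ± 94.2 for pre-iPSCs and 121 ± 6.48 for iPSCs (SD, n = 2 each). Within each table the drop from MEFs to pre-iPSCs was 2.6-fold and 14.7-fold, and the drop from MEFs to iPSCs was 5.2-fold and 14.8-fold.

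On the log2(FPKM + 1) scale, B2m fell by 2.62 ± 0.629 (SE) from MEFs to pre-iPSCs, with an adjusted p of 0.0304 in limma with Benjamini-Hochberg adjustment over 12401 genes. From MEFs to iPSCs it fell by 3.12 ± 0.629, with an adjusted p of 0.0119 in the same limma fit. A gene was called when its adjusted p was below 0.05 and its change at least 1 on this scale, and 16.4% of all genes tested were called between pre-iPSCs and MEFs and 25.9% between iPSCs and MEFs. These comparisons share the MEF libraries. Between iPSCs and pre-iPSCs the difference in B2m was -0.50 ± 0.629 (limma adjusted p = 0.733). Differences that follow transcript length were also removed, a correction chosen after the data were seen. The B2m differences from MEFs were then -2.42 in pre-iPSCs and -2.89 in iPSCs (limma adjusted p = 0.0109 and 0.00445). The pre-iPSC call was lost with no filter on low values (limma adjusted p = 0.0859), without pre-iPSC 2 (-1.75, adjusted p = 0.535 in limma) and without either iPSC library (adjusted p = 0.0647 and 0.0823), where the iPSC call was lost too (0.0859 and 0.112). The fall of the fibroblast list moved with that of B2m, and its part in it was not tested.

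The heavy chains H2-K1 and H2-D1 were expressed far below B2m, and neither was called in any comparison with all libraries. With a MEF library left out, both were called in some comparisons. H2-K1 was at 8.24 and 62.6 FPKM for MEFs, 14.4 and 20.1 for pre-iPSCs and 30.5 and 33.9 for iPSCs. The MEF values bracketed all the others, and both iPSC libraries lay above both pre-iPSC libraries. The difference of H2-K1 between iPSCs and pre-iPSCs was 0.88 ± 0.626 on the log2(FPKM + 1) scale (limma adjusted p = 0.495). That SE was estimated over all libraries, so the spread between the MEF libraries entered it. Without MEF 1 or MEF 2 the difference was unchanged, with an SE of 0.342 or 0.361.

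H2-D1 was at 13.6 and 140 FPKM for MEFs, 16.1 and 23.4 for pre-iPSCs and 16.1 and 11.4 for iPSCs. Apart from MEF 2, its values spanned only 11.4 to 23.4 FPKM over the other 5 libraries. The log2 difference of H2-D1 from MEFs was -1.15 ± 0.787 in pre-iPSCs (limma adjusted p = 0.376) and -1.64 ± 0.787 in iPSCs (limma adjusted p = 0.168).

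The order of the heavy chains changed along the series: H2-D1 was above H2-K1 in all 4 libraries of MEFs and pre-iPSCs and below it in both iPSC libraries. The FPKM of B2m divided by the sum of both heavy chains was 30 and 8.53 for MEFs, 8.22 and 2.71 for pre-iPSCs and 2.7 and 2.57 for iPSCs, and B2m has the shorter transcript, so the length-dependent difference between the MEF libraries bears on this ratio. The levels of H2-K1 and H2-D1 are uncertain, since reads had to map uniquely to a C57BL/6J genome: 23.6% of the 31-base windows of the H2-K1 transcript and 27.5% of those of H2-D1 also occur in another transcript, mostly in each other, their coding sequences were 92% identical (989 of 1075 aligned bases), and the MHC haplotypes of the crossed strains need not match the reference.

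**Figure D1:**
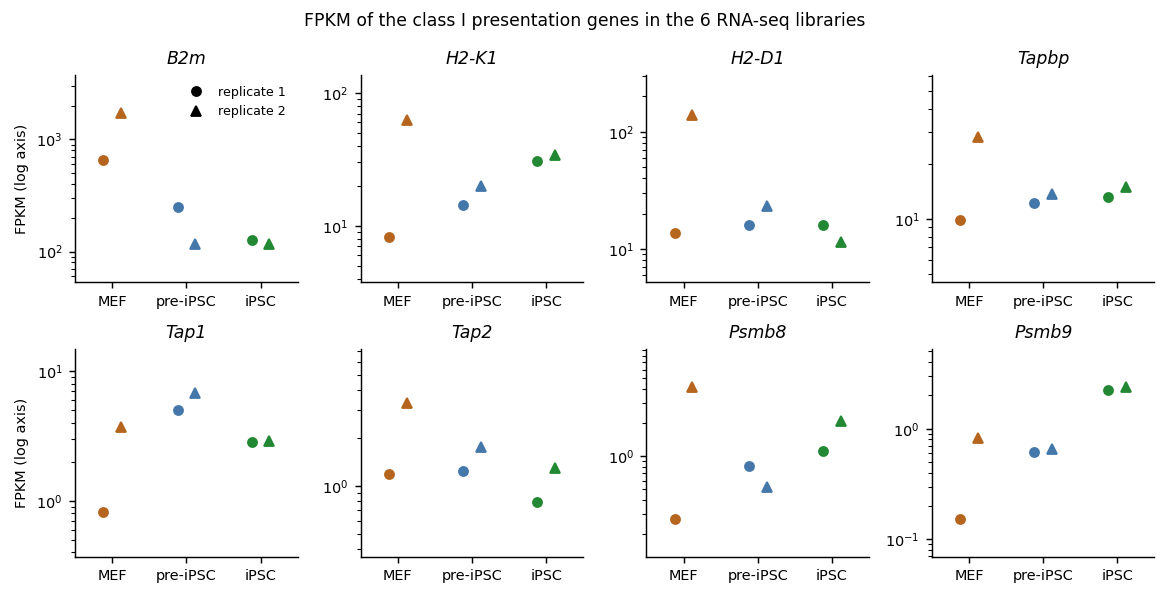
FPKM of the 8 genes on a log axis in the 2 libraries of MEFs, pre-iPSCs and iPSCs, with circles for replicate 1 and triangles for replicate 2 and a separate scale in each panel. B2m is highest in both MEF libraries, Psmb9 is highest in both iPSC libraries, and MEF 2 lies above MEF 1 in all 8 panels.

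The transporter and its partner tapasin were at low to moderate levels, and none of the 3 genes was called. Tap1 was at 0.814 and 3.74 FPKM for MEFs, 4.99 and 6.77 for pre-iPSCs and 2.83 and 2.92 for iPSCs. Both pre-iPSC libraries lay above all 4 others. The log2 difference of Tap1 between pre-iPSCs and MEFs was 1.22 ± 0.437 (limma adjusted p = 0.104), a 6.13-fold ratio in the first table and a 1.81-fold ratio in the second. It was called when differences that follow transcript length were removed (1.36, adjusted p = 0.0495 in limma) and without MEF 2 (1.81, limma adjusted p = 0.0152).

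Tap2, the partner of Tap1 in the dimer, did not share that order. Its FPKM was 1.18 and 3.31 for MEFs, 1.25 and 1.76 for pre-iPSCs and 0.788 and 1.29 for iPSCs, and the groups overlapped in each comparison. Tapbp was at 9.92 and 27.9 FPKM for MEFs, 12.2 and 13.7 for pre-iPSCs and 13.2 and 15 for iPSCs, so that all 4 reprogrammed libraries lay between the MEF values. The differences of Tap2 and Tapbp ran from -0.60 to 0.11 on the log2 scale over the 3 comparisons, with limma adjusted p-values from 0.244 to 0.928.

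Psmb9, an immunoproteasome subunit, was the gene that rose. Its FPKM was 0.153 and 0.82 for MEFs, 0.617 and 0.661 for pre-iPSCs and 2.23 and 2.4 for iPSCs. Both iPSC libraries lay above all 4 others, while the pre-iPSC values lay between those of the MEF libraries. Psmb9 rose from MEFs to iPSCs by 1.19 ± 0.323 on the log2(FPKM + 1) scale (limma adjusted p = 0.0334), which understates the ratio of a gene this low: FPKM was 14.6-fold higher in the first table and 2.93-fold in the second. Between iPSCs and pre-iPSCs the ratio was 3.61 and 3.63 in the 2 tables, a difference of 1.01 ± 0.323 that was not called (limma adjusted p = 0.112), in a comparison that called 8.62% of all genes. The call against MEFs was lost without MEF 1 (0.89, adjusted p = 0.17 in limma) and without either iPSC library (adjusted p = 0.159 and 0.103), and without MEF 2 the difference between iPSCs and pre-iPSCs was called (adjusted p = 0.0413).

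Psmb8, the other immunoproteasome subunit, was at 0.273 and 4.2 FPKM for MEFs, 0.807 and 0.523 for pre-iPSCs and 1.12 and 2.07 for iPSCs. MEF 2 and MEF 1 were the highest and the lowest libraries, and both iPSC libraries lay above both pre-iPSC libraries. The differences of Psmb8 ranged from -0.63 ± 0.526 (pre-iPSCs against MEFs) to 0.62 ± 0.526 (iPSCs against pre-iPSCs), with limma adjusted p-values of 0.474 and 0.583.

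The constitutive subunits that these proteins replace were far more abundant. Psmb5, Psmb6 and Psmb7 were at 81.4 to 313 FPKM over the 6 libraries and none was called. Psmb9 amounted to 0.136% and 0.345% of the Psmb6 level for MEFs, 0.379% and 0.399% for pre-iPSCs and 1.02% and 1.45% for iPSCs. Psmb8 amounted to 0.263% and 1.66% of Psmb5 for MEFs, 0.991% and 0.41% for pre-iPSCs and 0.974% and 1.86% for iPSCs. The share of Psmb9 was thus highest in both iPSC libraries, and that of Psmb8 overlapped between the groups. Psmb10, the third inducible subunit, was at 3.39% to 6.17% of Psmb7.

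**Figure D2:**
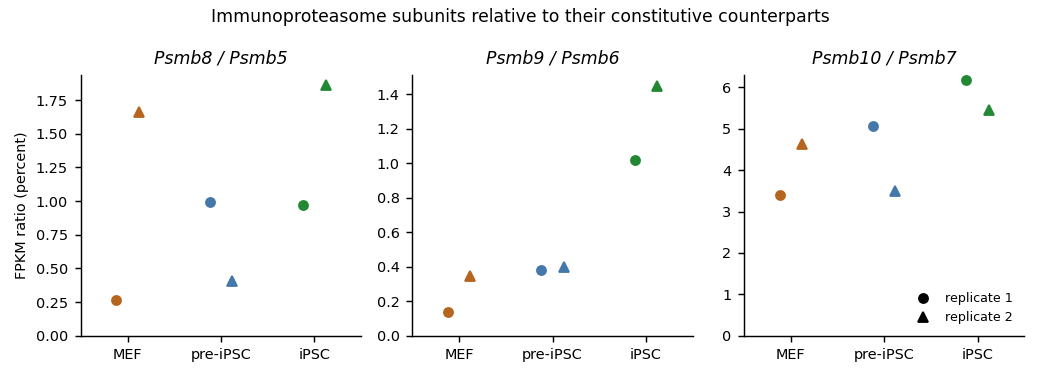
FPKM of Psmb8, Psmb9 and Psmb10 as a percent of the FPKM of Psmb5, Psmb6 and Psmb7, the constitutive subunits whose places they take, in each library (circles, replicate 1; triangles, replicate 2). The Psmb9 share is 1.02% and 1.45% in iPSCs and at most 0.399% in the other libraries.

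Over the 8 genes, the called count was 1 between pre-iPSCs and MEFs (B2m, lower), 0 between iPSCs and pre-iPSCs and 2 between iPSCs and MEFs (B2m lower, Psmb9 higher). By limma, 1 gene (Psmb9) had an unadjusted p below 0.05 between iPSCs and pre-iPSCs. The shares of members called lay near those of all genes given above. The median log2 difference of the members was -0.39, -0.09 and -0.13 in these comparisons, beside -0.04, -0.09 and -0.14 over all genes tested. FPKM of the groups did not overlap for 2, 5 and 2 of the 8 members, in comparisons where 53.9%, 52% and 62.9% of all genes did not overlap.

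The SD of FPKM was largest in MEFs for all 8 genes. All 8 genes were higher in MEF 2 than in MEF 1, by 2.64-fold for B2m, 2.8-fold for Tap2, 2.81-fold for Tapbp, 4.59-fold for Tap1, 5.36-fold for Psmb9, 7.6-fold for H2-K1, 10.3-fold for H2-D1 and 15.4-fold for Psmb8. Among genes of like transcript length that averaged 5 FPKM or more, the B2m ratio was at the 48.4 percentile of its length class, and those of H2-K1, H2-D1 and Tapbp were at the 99.2, 99.8 and 96 percentiles of theirs. Tap1, Tap2, Psmb8 and Psmb9 averaged less than 5 FPKM, and their ratios stood at the 98.2 to 99.8 percentiles of classes made of genes at higher levels. Of 17 interferon-stimulated genes that averaged 0.5 FPKM or more in MEFs, 13 were also higher in MEF 2, with Ifitm3 at 266 and 1730 FPKM, against 5264 of all 11458 genes at that level. This count was not matched for transcript length, which the ratio of the MEF libraries followed. The part of interferon in the MEF values was not tested. Between the RNA-seq tables, 6 of the 8 genes differed between pre-iPSCs and MEFs in opposite directions, and 5 of 8 did so between iPSCs and MEFs, whereas all 8 kept their direction between iPSCs and pre-iPSCs (4 higher, 4 lower). Of the 4 lower, H2-D1 differed by only -0.00186 on the log2(FPKM + 1) scale in the first table, and B2m by -0.0154 in the second. The shares over all genes are not given here, so these counts are not read as a trait of the members. Without MEF 1, the log2 differences of pre-iPSCs from MEFs were -3.62 for B2m, -2.77 for H2-D1, -1.67 for H2-K1 and -1.58 for Psmb8. Those of iPSCs from MEFs were -4.12 for B2m and -3.26 for H2-D1. Without MEF 2, the differences from MEFs were 0.47 in pre-iPSCs and -0.01 in iPSCs for H2-D1, and 0.82 and 1.69 for H2-K1.

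**Figure D3:**
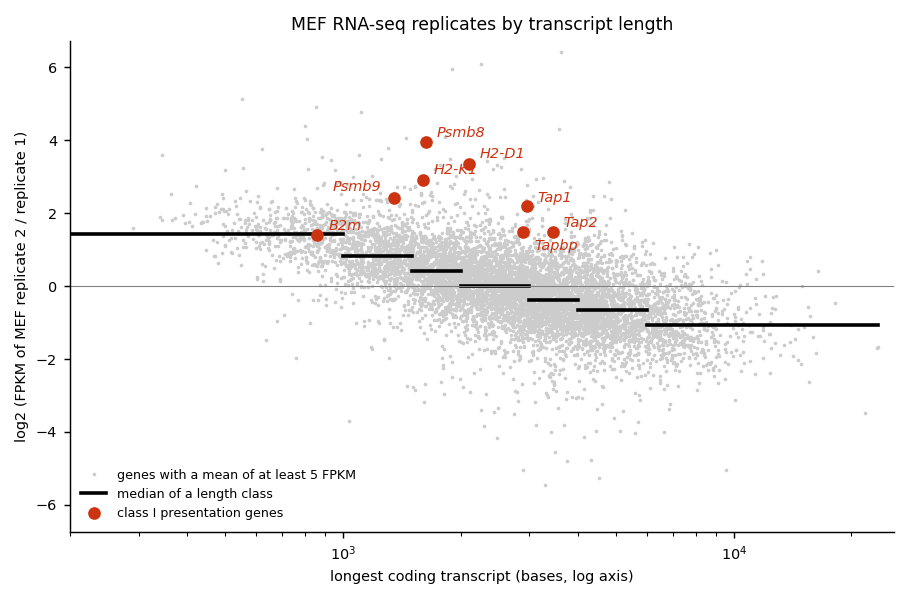
Log2 ratio of FPKM between MEF 2 and MEF 1 against the length of the longest coding transcript on a log axis, for genes that averaged 5 FPKM or more (grey) and the 8 genes (red), with black bars for the median of each length class. B2m sits near the median of its class, and the other 7 genes sit above the median bars of theirs, 4 of them (Tap1, Tap2, Psmb8 and Psmb9) with averages below the level required of the grey genes.

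Of 35 other genes of the pathway in the tables (other heavy chains, loading factors, proteasome subunits and activators), 24 were tested. Between pre-iPSCs and MEFs, iPSCs and pre-iPSCs, and iPSCs and MEFs, 1, 1 and 4 of them were called, where the shares of all genes tested were 16.4%, 8.62% and 25.9%. These shares are also the background for the counts of regulators, interferon-stimulated genes, class II genes and blood cell markers. Pdia3, a disulfide isomerase of the loading complex also known as ERp57, was the single gene called between pre-iPSCs and MEFs, at 487 and 583 FPKM for MEFs, 184 and 171 for pre-iPSCs and 140 and 196 for iPSCs (-1.58 ± 0.43, limma adjusted p = 0.0468), a call that was lost with no filter on low values (limma adjusted p = 0.0736). H2-Q7, a non-classical heavy chain, was the single gene called between iPSCs and pre-iPSCs, where it rose from 0.161 and 0.0716 FPKM to 2.76 and 2 (1.59 ± 0.293, limma adjusted p = 0.0188). H2-Q7 passed the filter on low values through the iPSC libraries, and with no filter its limma adjusted p was 0.0196. Between iPSCs and MEFs, H2-Q7 and H2-M5 were higher and Pdia3 and Mr1 lower. H2-M5 also passed the filter through the iPSC libraries, and with no filter the limma adjusted p of H2-Q7 and H2-M5 was 0.0116 and 0.015. The H2-Q genes are near-identical copies whose reads cannot be assigned with certainty. The proteasome activators Psme1 and Psme2 were at 31.7 to 112 FPKM and were not called.

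The regulators of class I genes showed both directions. Nlrc5, the class I transactivator, was at 0.0138 to 0.145 FPKM in all 6 libraries. Irf1, which binds the interferon-responsive element, was at 5.54 to 13.9 FPKM and was not called. Of 25 regulators tested, 1 was called higher and 2 lower between pre-iPSCs and MEFs, 0 and 3 between iPSCs and pre-iPSCs, and 1 and 7 between iPSCs and MEFs. Ifngr2, a chain of the interferon gamma receptor, fell from 42.2 and 62.1 FPKM in MEFs to 10.2 and 7.74 in pre-iPSCs (-2.40 ± 0.374, limma adjusted p = 0.00662) and stood at 5.74 and 5.9 in iPSCs. The NF-kB subunits Rela and Nfkb2 fell from pre-iPSCs to iPSCs by 1.9 ± 0.405 and 1.87 ± 0.373 (limma adjusted p = 0.0309 and 0.0246), as did Irf2, by 2.22 ± 0.384 (limma adjusted p = 0.0152). With no filter the call of Rela was lost (limma adjusted p = 0.0614), and Nfkb2 and Irf2 stood at 0.0468 and 0.0484.

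Of 17 interferon-stimulated genes tested, 3 were higher and 2 lower in pre-iPSCs than in MEFs, 1 was higher and 1 lower in iPSCs than in pre-iPSCs, and 2 were higher and 5 lower in iPSCs than in MEFs. The genes that rose in pre-iPSCs included Bst2, an antiviral membrane protein, at 9.16 and 44.9 FPKM in MEFs against 131 and 320, and Oas1a, an antiviral nucleotide synthetase, at 0 and 0.17 FPKM against 8.42 and 7.5. The 2 that fell were Irgm1, from 17.7 and 21.7 FPKM to 1.78 and 0.628 (-3.28 ± 0.429, limma adjusted p = 0.00372), and Ifit2, from 3.68 and 1.48 to 0.542 and 0.0894 (-1.40 ± 0.363, limma adjusted p = 0.0401). With no filter the calls of Bst2 and Ifit2 were lost (limma adjusted p = 0.0673 and 0.0701), and that of Irgm1 was kept (0.0273). Oas1a then fell to 0.683 and 0.726 FPKM in iPSCs. It passed the filter through the pre-iPSC libraries, and with no filter its limma adjusted p was 0.0166 and 0.0217 in these comparisons. Among the 5 lower in iPSCs than in MEFs were Irgm1 (-2.92 ± 0.429), Ifitm3 (-2.21 ± 0.501) and Ifi35 (-1.92 ± 0.448), with limma adjusted p of 0.00387, 0.0183 and 0.0202. The call of Ifi35 was lost with no filter (limma adjusted p = 0.0539). Class II genes stayed low, with summed FPKM of 3.57 to 13.3 over 8 genes. Of 5 tested, 1 was called higher in each comparison, H2-DMb1 between pre-iPSCs and MEFs and Cd74 in the other 2. With no filter only Cd74 between iPSCs and MEFs stayed called (limma adjusted p = 0.0338). Blood cell markers summed to 4.45 to 51.4 FPKM over 8 genes, 5 of which were tested. The highest sum was that of iPSC 2, where Lyz2, a macrophage lysozyme, made up 45.5 FPKM, against 2.92 in iPSC 1 and 21.1 and 13.6 in MEFs. Between iPSCs and MEFs, Cd14 was called lower (-1.55 ± 0.335, limma adjusted p = 0.0152) and Cd3e higher (1.63 ± 0.271, limma adjusted p = 0.00608). Cd3e, at 0 in MEFs and pre-iPSCs, passed the filter through the iPSC libraries. With no filter the limma adjusted p of Cd14 and Cd3e was 0.0398 and 0.00886. The part of such cells in the members' values was not tested.

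H3K4me3 was read at all 8 promoters in every library, and no difference between cell types was called. Reads of nucleosome calls with centres within 1000 bp of the start site were counted. B2m had 65 and 47 H3K4me3 reads for MEFs, 41 and 29 for pre-iPSCs and 32 and 40 for iPSCs, where the median promoter had 36 and 30, 28 and 25, and 29 and 25. B2m was thus above the median in every library, and both MEF libraries lay above the other 4. The difference was -0.36 ± 0.253 on the log2 scale in pre-iPSCs (adjusted p = 0.452 in edgeR's quasi-likelihood test) and -0.33 ± 0.252 in iPSCs (edgeR adjusted p = 0.389). Scaled to all unique reads instead of by TMM, it was -0.74 and -0.68 (edgeR unadjusted p = 0.0219 and 0.0356, adjusted p = 0.112 and 0.109). The share of these reads on the transcribed side of the start site, pooled over libraries, was 79.5% in MEFs (89 of 112), 70% in pre-iPSCs (49 of 70) and 65.3% in iPSCs (47 of 72). By library, 53 and 36 reads lay on that side for MEFs, 30 and 19 for pre-iPSCs and 24 and 23 for iPSCs. On the other side lay 12 and 11, 11 and 10, and 8 and 17. The pooled share was also lower in iPSCs than in MEFs at the other members except Tap1 and Psmb9. Its value over all promoters was not computed.

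H3K4me3 reads ranged widely between the genes. Tap1, with 62 and 63 reads for MEFs, 57 and 41 for pre-iPSCs and 45 and 50 for iPSCs, stood between the 82.2 and 98.5 percentiles of all promoters. Psmb9 shares most of that window and had 62 and 61, 54 and 37, and 39 and 46 reads. H2-K1 was the lowest, with 20 and 19 reads for MEFs, 24 and 13 for pre-iPSCs and 19 and 17 for iPSCs (25.4 to 41.6 percentile).

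H2-D1 had 21 to 30 H3K4me3 reads per library, Tapbp 31 to 67, Psmb8 29 to 47 and Tap2 17 to 46. The heavy chains were thus at or below the median promoter in every library although their transcripts were well above the median gene. Of their promoter windows, 29.7% (H2-K1) and 18.6% (H2-D1) consisted of 31-base stretches that recur in the genome, and the authors had kept only reads that mapped uniquely. The part of this in their H3K4me3 reads was not tested.

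No member was called for H3K4me3 by edgeR, where 3.83% of 17700 promoters were called between pre-iPSCs and MEFs, 0% between iPSCs and pre-iPSCs and 13.8% between iPSCs and MEFs. With TMM, none of the 8 members had an unadjusted p below 0.05 in any of the 3 comparisons, and DESeq2 called none either. Between iPSCs and pre-iPSCs, where no promoter was called by edgeR or DESeq2, 1581 had an unadjusted p below 0.05 in edgeR. The members' log2 differences ranged from -0.36 to 0.24, from -0.14 to 0.46 and from -0.33 to 0.20 in these comparisons, with SEs of 0.238 to 0.379. The median promoter also had more reads in MEFs, and scaling to all unique reads shifted the median difference of all promoters to -0.39 in pre-iPSCs and -0.37 in iPSCs against MEFs, under which no member was called either.

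H3K27me3 at B2m rose in both reprogrammed cell types, by calls that depended on the tool. B2m had 1 and 1 H3K27me3 reads for MEFs, 9 and 11 for pre-iPSCs and 14 and 15 for iPSCs, where the median promoter had 6 and 8, 8 and 7, and 9 and 8. Its promoter went from far below the median in MEFs, at the 3.89 percentile at the lowest, to above it in both reprogrammed cell types. By the summed reads of both libraries, scaled to the reads in calls, the ratio to MEFs was 10.4 in pre-iPSCs (95% interval 2.52 to 91.7, from exact binomial limits that cover counting error only) and 15.1 in iPSCs (3.81 to 130).

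In edgeR the H3K27me3 difference of B2m was 3.22 ± 0.789 (adjusted p = 0.0047) between pre-iPSCs and MEFs and 3.70 ± 0.726 (adjusted p = 0.000257) between iPSCs and MEFs, values that depend on the prior count with so few reads in MEFs. B2m passed the filter on low counts through the reprogrammed cells, and with no filter the differences were 3.11 and 3.55 (edgeR adjusted p = 0.00682 and 0.000316). In the same edgeR fit, 8.1% of 10407 promoters were called between pre-iPSCs and MEFs, 0.798% between iPSCs and pre-iPSCs and 11.2% between iPSCs and MEFs. DESeq2 gave 3.36 with an adjusted p of 0.289 (unadjusted p = 0.00683) for pre-iPSCs, and for iPSCs 3.84 with an unadjusted p of 0.00175 and no adjusted value. Without MEF replicate 2 or pre-iPSC replicate 2 the edgeR adjusted p for pre-iPSCs was 0.0559 and 0.0702. Between iPSCs and pre-iPSCs the difference was 0.48 ± 0.442 (edgeR adjusted p = 0.75). Within 500 bp of the start site B2m had 1 and 0, 1 and 4, and 9 and 7 reads, too few to be tested. Total H3 reads at B2m were 31 and 31 for MEFs, 120 and 50 for pre-iPSCs and 119 and 50 for iPSCs, also higher than in MEFs in every library but not called (0.54 and 0.70, edgeR adjusted p = 0.871 and 0.936). Scaled to all unique reads, the H3 differences of B2m were 1.24 and 1.26 (edgeR adjusted p = 0.488 and 0.858), with the median of all promoters at 0.92 and 0.60 instead of 0.04 and 0.05. Chromatin of MEFs had been digested with another amount of nuclease for another time, which cannot be told apart from the cell type.

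**Figure D4:**
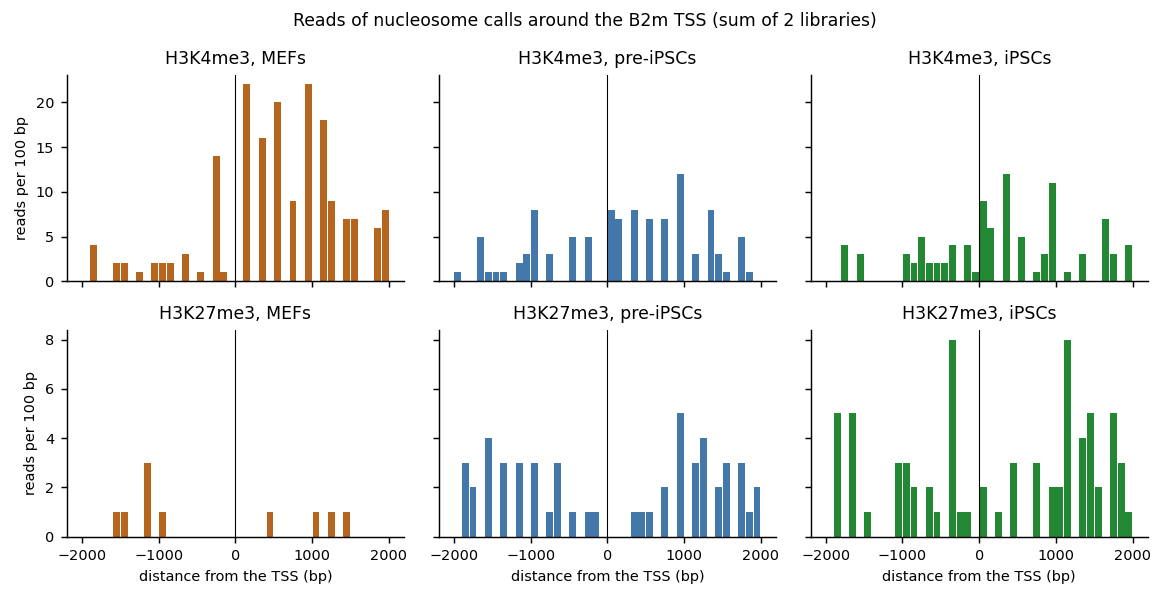
Reads of H3K4me3 (top) and H3K27me3 (bottom) nucleosome calls in 100 bp bins by distance from the B2m start site, summed over 2 libraries for MEFs, pre-iPSCs and iPSCs, with the gene to the right. H3K4me3 lies mostly to the right of the start site, with 89 of 112 reads there in MEFs, and H3K27me3 within 1000 bp sums to 2 reads for MEFs, 20 for pre-iPSCs and 29 for iPSCs.

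The 4 genes clustered within 17149 bp carried H3K27me3 above the median promoter in every library of every cell type. Psmb8 had 18 and 15 reads for MEFs, 29 and 22 for pre-iPSCs and 16 and 29 for iPSCs, between the 69.9 and 97.1 percentiles. Psmb9 had 18 and 21, 13 and 27, and 32 and 16 reads, and Tap1, in a largely shared window, had 8 and 18, 13 and 23, and 27 and 18. Tap2 had 10 and 13, 17 and 14, and 24 and 17. These promoters held both H3K4me3 and H3K27me3 reads, as did those of the other members in every library, and no threshold for either mark was applied. Whether both marks lay on the same nucleosomes or in the same cells was not measured.

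The differences of these 4 genes were positive against MEFs and not called. Between iPSCs and MEFs they were 0.79 ± 0.385 for Tap1 and 0.83 ± 0.39 for Tap2 (edgeR adjusted p = 0.181 and 0.165), 0.44 ± 0.365 for Psmb8 and 0.29 ± 0.356 for Psmb9. Psmb9, whose transcript rose in iPSCs, was not called for H3K27me3 between iPSCs and MEFs (edgeR adjusted p = 0.651). The heavy chains and tapasin lay lower, with 5 to 12 reads at H2-K1, 6 to 10 at H2-D1 and 2 to 8 at Tapbp. H2-D1 and Tapbp had too few reads to be tested, so that 6 of the 8 members were.

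**Figure D5:**
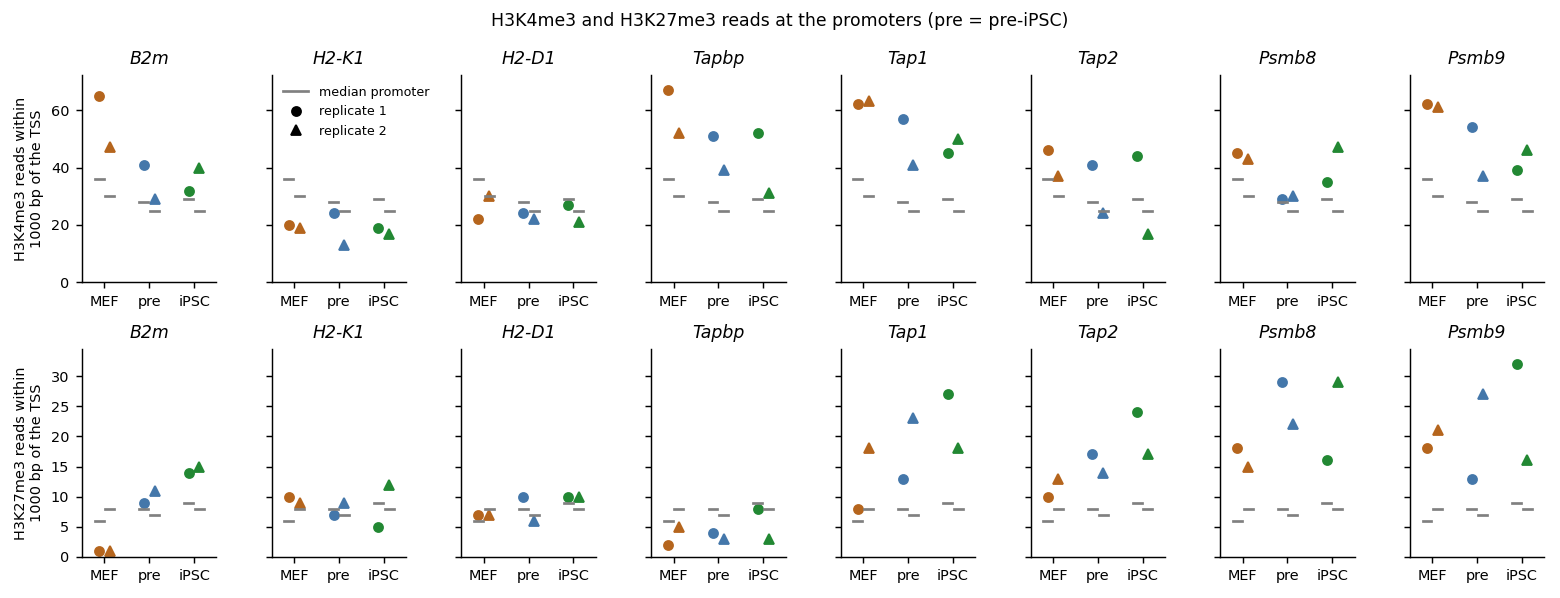
Reads of H3K4me3 (top) and H3K27me3 (bottom) within 1000 bp of the start site of the 8 genes in each library (circles, replicate 1; triangles, replicate 2), with grey bars at the median of all promoters in that library. B2m gains H3K27me3 from 1 and 1 reads in MEFs to 14 and 15 in iPSCs, Tap1, Tap2, Psmb8 and Psmb9 lie above the grey bars for H3K27me3, and no H3K4me3 difference was called.

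Histone H3, a measure of nucleosome occupancy, was dominated by the libraries that stood apart. At the median promoter H3 reads were 39 and 46 for MEFs, 143 and 37 for pre-iPSCs and 102 and 44 for iPSCs. Psmb9 followed this with 44 and 49, 345 and 56, and 178 and 34 reads. Psmb8, Tap1, Tap2 and Tapbp likewise had 272 to 347 reads in pre-iPSC 1 and 28 to 45 in pre-iPSC 2. No member was called (edgeR adjusted p from 0.871 to 1), and 0% of 19560 promoters were called by edgeR in each comparison (0% between pre-iPSCs and MEFs, 0% between iPSCs and pre-iPSCs, 0% between iPSCs and MEFs). At an unadjusted p below 0.05 edgeR found 373, 105 and 298 promoters in these comparisons, none of them a member, and DESeq2 called 0 in each. Without pre-iPSC replicate 2, 4592 promoters were called between pre-iPSCs and MEFs, and Tap2 was then the single member called.

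H3K9me3 was measured in 1 library per cell type, so its reads have no replicate check and were not tested. Psmb8 had 4 reads in MEFs (95% Poisson interval 1.09 to 10.2), 12 in pre-iPSCs (6.2 to 21) and 23 in iPSCs (14.6 to 34.5), against a median promoter of 6, 7 and 8. Psmb8 had the widest range of the 8 members. The intervals cover counting error only, and no difference between cell types is read from them. B2m had 4, 6 and 8 reads, Tap2 4, 8 and 10, Psmb9 12, 10 and 5, Tap1 10, 9 and 5, and H2-D1 10, 1 and 4. H2-K1 and Tapbp had at most 6 reads in each library. Above the median promoter were 3, 4 and 2 of the 8 members in MEFs, pre-iPSCs and iPSCs.

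The genes whose log2(FPKM + 1) followed the mean of the 8 members most closely over the 6 libraries, out of 2333 variable genes, were H2-T10 (Pearson r = 0.98), 1500015O10Rik (0.967), Amd1 (0.963), Btg3 (0.963) and Prelp (0.962). H2-T10, a non-classical heavy chain, was at 9.51 FPKM in MEF 2 and at most 0.683 elsewhere, and the other 4 also had their highest value in MEF 2. The 6 points share tables, and the likeness was not computed without MEF 2. Of 42 genes with a start site within 100 kb of a member, 29 were tested for expression, and 2, 1 and 3 (6.9%, 3.45% and 10.3%) were called between pre-iPSCs and MEFs, iPSCs and pre-iPSCs, and iPSCs and MEFs, against 16.4%, 8.62% and 25.9% of all genes. Among them Daxx, a histone chaperone gene near Tapbp and H2-K1, rose from 18.1 and 9.99 FPKM in pre-iPSCs to 49.3 and 30.6 in iPSCs (1.46 ± 0.331, limma adjusted p = 0.0373), and H2-DMb1, a class II loading factor gene near Tap1 and Psmb9, rose from 0.343 and 1.12 in MEFs to 3.12 and 3.95 in pre-iPSCs (1.42 ± 0.327, limma adjusted p = 0.026), a call that was lost with no filter on low values (limma adjusted p = 0.0587). In the same comparisons no member near these genes was called, with Tap1 at 1.22 ± 0.437 between pre-iPSCs and MEFs (limma adjusted p = 0.104).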

How the data were processed

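RNA-seq reads had been mapped uniquely with TopHat2 2.0.4, and the authors deposited FPKM from Cuffdiff (Cufflinks 2.0.2) in 2 tables, each with 1 library per cell type. ChIP reads had been aligned to mm9 with Bowtie 1.0.1 (unique hits, at most 2 mismatches) and shifted by 73 bp to the nucleosome centre, and the authors deposited GeneTrack calls with the read count of each call. MNase digestion of MEFs differed from that of the other cells in amount and time. The RNA read length and strandedness were not given in the sources used here.

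Expression was tested with limma 3.58.1 on log2(FPKM + 1), with the table as a term, over genes that averaged 0.5 FPKM or more. The reads of calls within 1000 bp of each TSS were summed and tested with edgeR 4.0.16 (quasi-likelihood, filterByExpr, TMM). P-values were adjusted by Benjamini-Hochberg over all features tested. All 6 libraries of an assay shared 1 estimate of the spread. On simulated data for pre-iPSCs against MEFs, limma recovered 49.5% of 4-fold changes in a fit of 12401 genes. These changes were made on the log2(FPKM + 1) scale and only in genes that averaged above 2 on it, so the rate does not cover lower genes. In the promoter simulations edgeR recovered 50.5% of 2-fold and 99.5% of 4-fold changes of H3K4me3 (17700 promoters), 17% and 99.5% of H3K27me3 (10407), and 1% and 43% of H3 (19560). There, promoters of like read count were given the same spread. RNA depth is unknown because FPKM carry no counts.

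The 8 members and the gene lists were chosen with earlier results of these data known. Named beyond the members were Nlrc5, Irf1, the proteasome genes, the 5 genes most correlated with the members' mean and up to 4 neighbours. Others were taken from the up to 4 genes per list and comparison with the largest called changes that had the same direction in both tables. Not all of these are named. Lyz2 was named after its value was seen, and 1 regulator and 1 motif are not reported here. Transcript lengths and sequences came from GENCODE M1 and NCBIM37. DESeq2 1.42.0, other scalings, filters, windows and left-out libraries were the alternatives.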

Additional observations from a re-analysis of the deposited data

How the results depend on the processing

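Among the members, the expression call of B2m between pre-iPSCs and MEFs was lost with no filter on low values (0 called, unadjusted p = 0.0116 instead of 0.00386 and adjusted p = 0.0859 in limma; the cause was not tested), and Tap1 joined it with the transcript length correction (2 called). This correction and the scaling of FPKM to equal sums were chosen after seeing the data. The H3K27me3 call of B2m between pre-iPSCs and MEFs was lost with DESeq2. Between iPSCs and MEFs DESeq2 gave B2m no adjusted p, so that call was not assessed there. With a window of 500 bp or calls of at least 2 reads B2m had too few reads to be tested. Differences that were not called turned in sign for H2-K1 (0.00), Tap2 (0.00) and Tapbp (0.07) between pre-iPSCs and MEFs and for Psmb8 (0.37) and Tapbp (0.22) between iPSCs and MEFs with FPKM scaled to equal sums, for Psmb8 with a pseudocount of 0.1 (0.36) and the length correction (0.15), and for Tapbp (0.14) and, between pre-iPSCs and MEFs, Psmb9 (-0.03) with quantile normalization; the cause was not tested. Equal sums moved the median of all genes to 0.27 between pre-iPSCs and MEFs and 0.23 between iPSCs and MEFs, and the calls from 916 higher and 1116 lower to 907 and 565, and from 1279 and 1927 to 1283 and 881. B2m and Psmb9 kept their calls there.

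Leaving out a library gave 0 to 4 called members between pre-iPSCs and MEFs, 0 to 1 between iPSCs and pre-iPSCs and 0 to 3 between iPSCs and MEFs for expression, 0 to 1 for H3K27me3 between pre-iPSCs and MEFs and 0 to 1 for H3. A lone library was then assumed to vary like the other groups. Calls over all features moved in the same fits, as given at the end of this section. The counts of members are therefore not read as a trait of the members. Differences that were not called with all libraries changed sign in these fits, and the ends of some ranges, such as those of H2-K1, were called there. The ranges over left-out libraries, for pre-iPSCs against MEFs, were -2.77 to 0.47 (H2-D1), -1.67 to 0.82 (H2-K1), -1.58 to 0.31 (Psmb8), -0.12 to 0.48 (Psmb9), -0.63 to 0.03 (Tap2) and -0.97 to 0.27 (Tapbp). For iPSCs against MEFs they were -0.79 to 1.69 (H2-K1), -0.96 to 0.93 (Psmb8), -0.19 to 0.99 (Tap1) and -0.86 to 0.38 (Tapbp). For iPSCs against pre-iPSCs they were -1.37 to 0.36 (B2m), -1.66 to 0.69 (H2-D1), -0.14 to 1.38 (Psmb8) and -0.20 to 0.43 (Tapbp), and -0.24 to 0.27 for H3K4me3 at B2m. These fits lose samples, and the cause of each change was not tested.

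Same-numbered libraries did not deviate together in every pair (correlations of deviations from -0.205 to 0.346 for expression, -0.0433 to 0.115 for H3K4me3, -0.0473 to 0.0575 for H3K27me3 and -0.0309 to 0.795 for H3), so the number was not taken to pair them for the marks, whereas for expression the table, which holds 1 number of every cell type, was a term of the fit. Between pre-iPSCs and iPSCs, whose lines correspond, these were 0.112, 0.115, 0.0575 and 0.795, and no source ties the numbers to the clones. Without the table as a block, 1, 0 and 2 members were called for expression, and with the replicate block 1, 0 and 1 for H3K27me3 and 0 for H3K4me3 and H3, all as in the main fits; over all promoters the block moved the count between iPSCs and pre-iPSCs from 83 to 42 for H3K27me3 and from 0 to 10 for H3K4me3.

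Over all features, other counts that moved by over 1.5 times were those of expression between pre-iPSCs and MEFs with no filter (1244 instead of 2032), of H3K27me3 with DESeq2 (44, 0 and 26 instead of 843, 83 and 1167), a window of 500 bp (99, 2 and 175) and calls of at least 2 reads (34 between iPSCs and pre-iPSCs, 657 between iPSCs and MEFs) and, between iPSCs and pre-iPSCs, no filter (49), and of H3K4me3 with DESeq2 (31 and 118 instead of 678 and 2446 against MEFs), the smaller window (275 and 900) and scaling to unique reads (232 higher and 1121 lower instead of 534 and 144 between pre-iPSCs and MEFs, 841 and 2356 instead of 1720 and 726 between iPSCs and MEFs); between iPSCs and pre-iPSCs, H3K4me3 calls went from 0 to 19 with no filter and 21 with that scaling. Leaving out a library gave, for pre-iPSCs against MEFs, iPSCs against pre-iPSCs and iPSCs against MEFs, 1072 to 2912, 87 to 2281 and 1117 to 3720 calls for expression (2032, 1069 and 3206 with all), 96 to 905, 0 to 71 and 594 to 2288 for H3K4me3, 396 to 857, 9 to 129 and 468 to 1185 for H3K27me3, and for H3 0 to 4592, 0 to 2148 and 0. Few reads per promoter limit H3K27me3 and H3K9me3.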
